A study of Mus musculus and Homo sapiens with 22 samples.

Results

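Lin28A sites over the nuclear transfer RNA (tRNA) genes of the mouse were taken from the Lin28A irCLIP site lists of mouse embryonic stem (mES) cells. A site belonged to the set if it overlapped by 1 nt or more a tRNA gene of the RefSeq annotation of GRCm38.p6, the assembly behind mm10. Sites on the mitochondrial chromosome were left out. The set held 239 of the 11285 sites of the Mettl3 knockout (KO) list, or 2.12%, and 171 of the 10990 sites of the Mettl3 wild-type (WT) list, or 1.56%. Over both lists this was 410 of 22275 sites.

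irCLIP maps RNA that ultraviolet light has crosslinked to a protein in living cells and that was recovered with an antibody against that protein. The KO sample was the V6.5 mES line with the genotype Mettl3_KO and the WT sample was the V6.5 line with the genotype Mettl3_WT, both immunoprecipitated with an anti-Lin28A antibody and both grown with serum and LIF. Each genotype was 1 sample with 1 site list, and the sources used here give neither the allele nor whether the KO line is 1 clone. The anti-GFP control samples of both genotypes were not analysed here. Of 10 embryonic stem cell marker genes, 9 held sites in the KO list and all 10 in the WT list, among them Sox2 with 11 KO sites and 7 WT sites and Pou5f1 with 7 KO sites and 6 WT sites. Dppa4 held 0 KO sites and 1 WT site. The presence of sites shows only that the marker RNAs were recovered.

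Each site as deposited was a stretch of 1 or more steps of 50 nt with a score, a p-value and a strand. The sources used here give neither the unit of the score nor the read depth behind it, so scores were ranked and summarised only within their own list, where the lowest was 12 in the KO list and 13 in the WT list. Where the same score limit was set in both lists to count sites, this is said. With 1 sample a genotype there is no test between KO and WT. Intervals in parentheses are 95% intervals that cover counting error only. They treat sites as independent, which is too narrow for tRNA genes: many copies of a family are near identical, reads from such copies can be split or misplaced among them, and the sources used here do not say how reads with several matching positions were handled. A site therefore names a tRNA gene copy with uncertainty.

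tRNAs are the adaptors of translation. RNA polymerase III makes them from short genes whose promoter, the A box and the B box, lies inside the transcribed stretch, and the RNA folds into a cloverleaf with the anticodon arm in the middle and the TΨC arm, encoded by the B box, towards the 3′ end. Lin28A is an RNA-binding protein of pluripotent cells with a cold shock domain and a pair of CCHC zinc knuckles, best known for binding the let-7 microRNA precursors at a GGAG motif and for binding many mRNAs. Mettl3 carries the catalytic activity of the complex that places N6-methyladenosine on mRNA, and the comparison of KO with WT cells asks which Lin28A sites differ when that enzyme is lost.

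The stretch of a tRNA that lay under a site is shown by the genes whose bases could be read. These were tRNA genes that fall inside the promoter windows of neighbouring genes in the RefSeq sequence table, and they were not chosen for their scores. Capitals mark the bases under the site, which were the same in both lists where both had one. Each sequence is given 5′ to 3′ on the strand of the site, or on the strand that carries the anticodon for the gene with none.
n-TRtcg5, Arg-TCG, chr7:79466419-79466491, plus strand, site in KO and WT: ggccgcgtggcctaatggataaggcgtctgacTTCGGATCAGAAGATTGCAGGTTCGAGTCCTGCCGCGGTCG
n-TTagt9, Thr-AGT, chr7:35234770-35234843, minus strand, site in KO and WT: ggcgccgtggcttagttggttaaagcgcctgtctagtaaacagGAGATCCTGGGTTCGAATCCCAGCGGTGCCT
n-TLaag4, Leu-AAG, chr7:120917528-120917598, plus strand, 71 of the gene's 82 bases, site in KO: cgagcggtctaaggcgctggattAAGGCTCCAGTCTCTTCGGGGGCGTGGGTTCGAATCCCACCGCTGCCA
n-TVcac9, Val-CAC, chr13:23446142-23446214, minus strand, site in KO: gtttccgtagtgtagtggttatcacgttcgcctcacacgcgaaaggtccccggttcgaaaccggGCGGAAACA
n-TAagc16, Ala-AGC, chr13:21222586-21222657, plus strand, no site: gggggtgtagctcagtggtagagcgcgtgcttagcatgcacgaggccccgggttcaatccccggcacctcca

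In all 4 of these genes with a site, the site ran to the 3′ end of the tRNA. In n-TRtcg5 it covered 41 of 73 bases, with the anticodon at bases 34 to 36 under it, and scored 234 in the KO list and 78 in the WT list. In n-TTagt9 it covered 31 of 74 bases, all of them 3′ of the anticodon at bases 35 to 37, and scored 27 in the KO list and 21 in the WT list. In n-TLaag4 the site began at the first base of the anticodon and scored 25 in the KO list. In n-TVcac9 it covered only the last 9 bases and had the list's lowest score, 12, in the KO list.

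Both strands of these sequences were searched for GGAG and GAAG, the letters of the Lin28 zinc knuckle motif, and for GGTTCGA, the core of the B box. On the printed strand GGAG was found only in n-TTagt9, from base 43, where it began 1 base before the site, and GAAG only in n-TRtcg5, from base 42, under the site. On the opposite strand GAAG was found in n-TRtcg5 and n-TLaag4, and GGAG in n-TLaag4 and n-TAagc16. The B box core GGTTCGA lay under the site in n-TRtcg5, n-TTagt9 and n-TLaag4, lay 5′ of it in n-TVcac9, and was not found in n-TAagc16. Another pair of tRNA genes was held in part: n-THgtg7, without a site, carries GGTTCGA from base 51, and n-TNgtt6, whose sites in both lists lie beyond the 47 bases held, has no match in them. Of 32851 stretches of 73 bases from the promoter table, 62.4% held GGAG, 54.0% held GAAG and 0.21% held GGTTCGA on either strand. GGAG and GAAG are thus common letters in a stretch of tRNA length, and a match is no more than a description.

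The sites reached most kinds of tRNA. The annotation placed 403 tRNA genes on nuclear chromosomes, 70 to 107 nt long, in 48 anticodon families, each family being the genes for 1 amino acid with 1 anticodon. A KO site lay over 235 of the genes (58.3%) in 46 families, and a WT site over 169 genes (41.9%) in 45 families. All 20 amino acids were represented in both lists. Ser-CGA, a family of 3 genes, had KO sites and no WT site, and His-ATG and Ser-GGA had a site in neither list. The Ser-CGA sites scored 12 to 20, near the lowest scores of the lists, 12 in KO and 13 in WT. No site overlapped more than 1 tRNA gene.

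**Figure D1:**
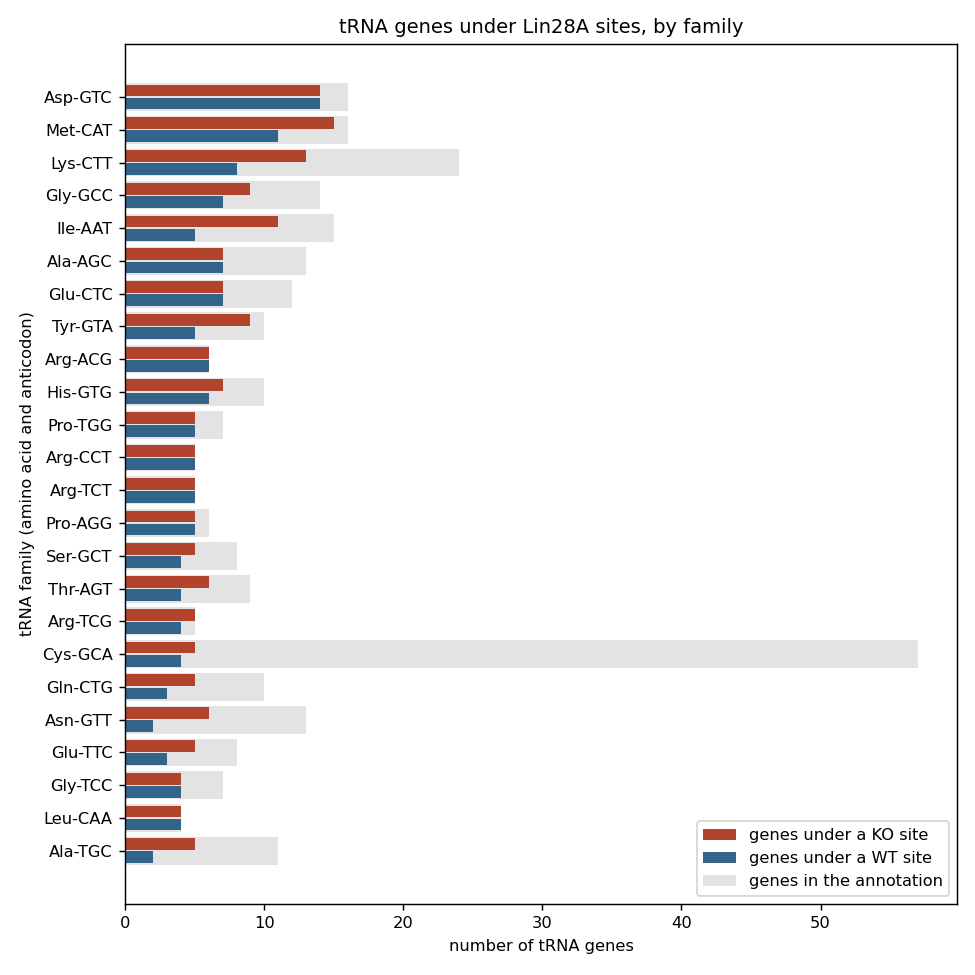
Number of tRNA genes (x axis) under a KO site (red), under a WT site (blue) and in the annotation (grey) for the 24 anticodon families with the most sites over both lists (y axis). Asp-GTC had 14 of 16 genes under a site in each list, whereas Cys-GCA had 5 of 57 genes under a KO site and 4 under a WT site.

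Asp-GTC, the aspartate tRNA, had the most sites of all families over both lists together, 28 against 26 for Met-CAT, and the same genes in both lists: 14 of its 16 genes lay under a KO site and under a WT site, and the remaining n-TDgtc6 and n-TDgtc7, neighbours on chromosome 1, under none. The initiator and elongator methionine tRNAs share the anticodon CAT, and Met-CAT had 15 of 16 genes under a KO site and 11 under a WT site. Of the 24 genes of Lys-CTT, 13 lay under a KO site and 8 under a WT site. Gly-GCC had 9 of 14 genes under a KO site and 7 under a WT site. The methionine, lysine and glycine families thus had more genes under a site in the KO list, with Asp-GTC equal.

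The widest gap in gene number among the leading families was in isoleucine. Ile-AAT had 11 of 15 genes under a KO site and 5 under a WT site, and Tyr-GTA, whose genes carry an intron, had 9 of 10 genes under a KO site and 5 under a WT site. Ala-AGC had 7 of 13 genes in each list, all 7 shared. Glu-CTC had 7 of 12 genes in each list, 6 of them shared. His-GTG had 7 of 10 genes under a KO site and 6 under a WT site, and Pro-TGG had 5 of 7 in each list.

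Of all amino acids, arginine had the largest share of genes under a site in both lists. Each of its 24 genes, from 5 families, lay under a KO site and 23 lay under a WT site. Arg-ACG had all 6 genes and Arg-CCT all 5 genes under a site in both lists. The 1 arginine gene without a WT site was n-TRtcg3. Arginine had 16 KO sites and 14 WT sites with a score of 50 or more, more than any other amino acid in either list. Outside the leading families, serine had 14 of 22 genes under a KO site and 7 under a WT site, asparagine 6 of 13 and 2, and tryptophan 4 of 8 and 1. These amino acids were named for their gap after the values were seen. Several other families had equal numbers in both lists, among them Pro-AGG with 5 of 6 genes, Gly-TCC with 4 of 7 and Leu-CAA with 4 of 4.

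Cysteine tRNA genes were mostly without sites. Of 57 Cys-GCA genes, 5 lay under a KO site and 4 under a WT site, and 52 lay under none. A single block of 48 Cys-GCA genes at chr6:48133937-48363603 held 0 tRNA sites in the KO list and 0 in the WT list. The 5 Cys-GCA sites of the KO list scored 13 to 63 and the 4 of the WT list 15 to 30. Without this family, 232 of 346 tRNA genes (67.1%) had a site in either list, against 237 of 403 (58.8%) with it. Whether the genes of this block are transcribed in these cells was not measured in the lists. How reads that match several copies were handled is not given. Loss of such reads and absence of binding therefore cannot be told apart here.

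The scores of tRNA sites were high within each list. The median score was 36.5 (32 to 42.5) in the KO list, where all other sites had a median of 18.7, and 31.5 (29 to 42) in the WT list, where all other sites had a median of 20. A score of 50 or more was reached by 91 of the 239 KO sites (38.1%), against 11.6% of all other KO sites. In the WT list it was reached by 60 of 171 (35.1%), against 13.1% of all other WT sites. The range was wide, 12 to 2652 in the KO list and 13 to 2570.5 in the WT list. Small nucleolar RNAs, another class of short stable RNA, had medians of 39.2 over 202 KO sites and 32 over 173 WT sites, close to those of tRNA, and sites over protein-coding genes had medians of 18 and 20. How much RNA of each class the cells held was not measured in the lists, so RNA abundance and binding cannot be told apart.

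**Figure D2:**
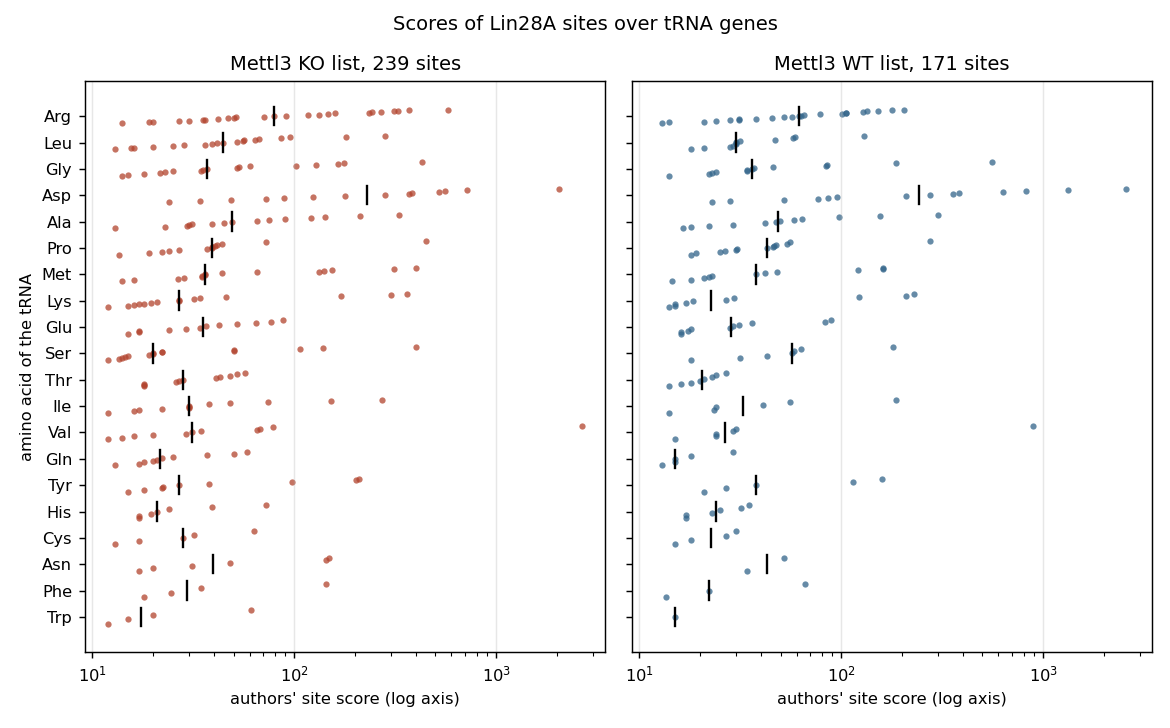
Score of every tRNA site (x axis, log scale, the authors' own value) by amino acid of the tRNA (y axis) for the KO list (left, 239 sites) and the WT list (right, 171 sites); black bars are medians. Aspartate had the highest median in both lists, 229.8 in KO and 242 in WT, and valine n-TVtac1 the highest KO score, 2652.

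A few genes carried the top scores. In the KO list the highest tRNA site was that of n-TVtac1, a valine tRNA gene, at chr19:12011951-12012000 on the plus strand, which scored 2652 and ranked 10 of 11285. It was followed by n-TDgtc11 at chr13:21911301-21911400 on the plus strand, with 2040. The other 8 of the KO list's 10 highest were n-TDgtc13 (720.5), n-TRccg1 (574.5), n-TDgtc12 (560.5), n-TDgtc4 (518.5), n-TPcgg3 (450), n-TGgcc4 (431), n-TMcat16 (402) and n-TSgct6 (400). They stand for 7 amino acids, and 4 of the 10 were Asp-GTC.

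In the WT list n-TDgtc11 was highest, with 2570.5 and rank 11 of 10990. Then came n-TDgtc4 (1321), n-TVtac1 (889), n-TDgtc13 (819.5), n-TDgtc12 (629), n-TGgcc4 (558), n-TDgtc5 (381.5), n-TDgtc9 (357), n-TAagc12 (301) and n-TDgtc16 (275.5). Of these 10, 7 were Asp-GTC. The 100 highest sites of a list included 13 tRNA sites in KO and 6 in WT. The Asp-GTC family made up 22.8% of the summed tRNA score in the KO list, over tRNA sites of 16650 nt in all with a mean score of 99.9, and 41.8% in the WT list, over 10750 nt with a mean score of 96.8. Leaving Asp-GTC out gave a median of 35.5 in KO and 30.5 in WT, whereas the mean without it was 82.0 in KO and 61.3 in WT. Among tRNA sites, fractional scores were found only at widths above 50 nt, as a mean over steps would give. Ranks, sums and means of scores may therefore depend on site width. The sites of n-TDgtc4 and n-TGgcc4, for example, were 100 nt wide in KO and 50 nt wide in WT. The shares of 22.8% and 41.8% were not adjusted for width.

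The scores listed for copies of a single family differed widely, though reads from near identical copies may be misplaced among them. Within Asp-GTC, all of whose genes are 72 nt long, the KO scores ran from 24 for n-TDgtc3 to 2040 for n-TDgtc11, and the WT scores from 23 for n-TDgtc2 to 2570.5 for n-TDgtc11. In both lists n-TDgtc11 led the family, and n-TDgtc2 and n-TDgtc3, with 34 and 24 in KO and 23 and 28 in WT, were its lowest. In Val-TAC, n-TVtac1 scored 2652 in KO and 889 in WT, while n-TVtac2, on the same stretch of chromosome 19, scored 34.5 in KO and 15 in WT. Met-CAT ran from 14 to 402 in KO and from 14.5 to 161 in WT, with n-TMcat16 highest in both lists, level with n-TMcat15 in WT.

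Nearly all WT sites had a KO counterpart and the reverse was less complete. A site was called shared if it overlapped by 1 nt or more a site of the other list on the same strand. Of the KO tRNA sites, 165 of 239 were shared, or 69.0% (62.8% to 74.8%), against 72.9% of all KO sites. Of the WT tRNA sites, 167 of 171 were shared, or 97.7% (94.1% to 99.4%), against 75.1% of all WT sites. The KO share thus lay near its background, and the WT share lay above it. Other short RNAs had high WT shares too: small nucleolar RNA sites were shared in 82.7% in KO and 97.1% in WT, and small nuclear RNA sites in 74.4% in KO and 94.1% in WT. Counted by gene, 167 tRNA genes had a site in both lists, 68 in the KO list alone, 2 in the WT list alone and 166 in neither. In all 167 genes with both, the sites were on the same strand, and 130 sites had identical ends in both lists.

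The unshared KO tRNA sites were mostly of lower score than the shared ones. Of these unshared sites, 42 scored under 20 and 31 between 20 and 50. Among all other KO sites, 2687 unshared sites scored under 20 and 296 between 20 and 50. A score of 20 or more was thus more frequent among unshared tRNA sites than among other unshared KO sites. Among KO tRNA sites that scored under 20, 9 of 51 were shared, or 17.6% (8.40% to 30.9%), against 55.1% of all other KO sites in that band. Between 20 and 50, 66 of 97 KO tRNA sites were shared, or 68.0% (57.8% to 77.1%), against 92.2% of the others. From 50 upward, 90 of 91 KO tRNA sites were shared. In the WT list the same bands ran the other way: 32 of 35 tRNA sites under 20 were shared, or 91.4% (76.9% to 98.2%), against 54.2% of all other WT sites, and 76 of 76 between 20 and 50, against 91.3%. In KO, tRNA sites of modest score therefore lacked a counterpart more often than other sites of like score, and in WT less often. The intervals of tRNA and other sites did not overlap in either list below a score of 50.

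**Figure D3:**
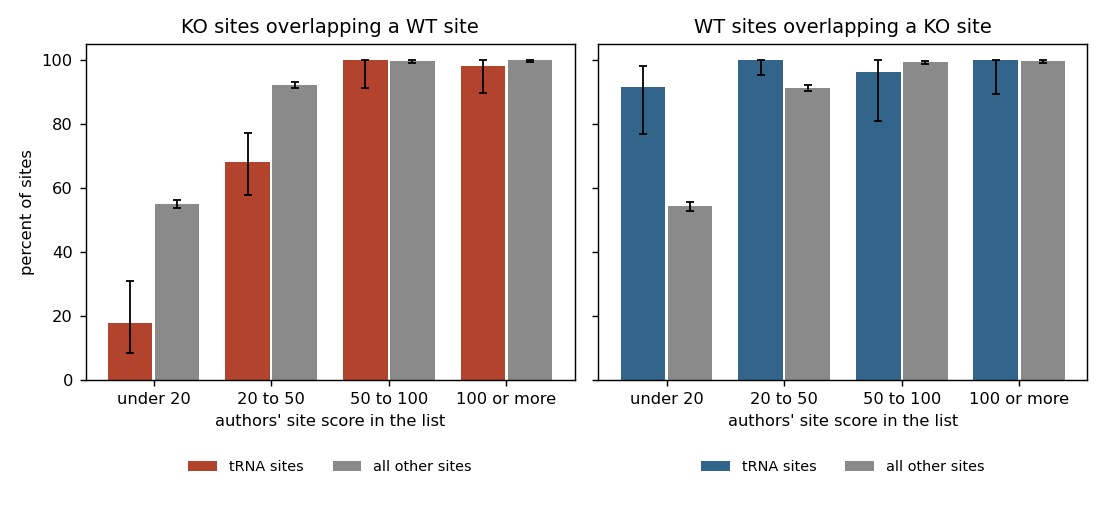
Percent of sites (y axis) that overlap a site of the other list, by score band (x axis), for KO sites (left) and WT sites (right); coloured bars are tRNA sites, grey bars all other sites, and error bars exact 95% intervals for counting error. Below a score of 20, 17.6% of KO tRNA sites were shared against 55.1% of other KO sites, and 91.4% of WT tRNA sites against 54.2% of other WT sites.

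The KO list also held more tRNA sites. The KO list held 58.3% (53.4% to 63.1%) of all tRNA sites of both lists, against 50.7% for sites of every kind. The KO list went down to a score of 12 and the WT list to 13. With only sites of 13 or more in both lists, a limit chosen after the data were seen, the KO list held 234 tRNA sites and the WT list 171, a KO share of 57.8% against 47.8% for all sites. At 50 or more the counts were 91 in KO and 60 in WT, a KO share of 60.3% (52.0% to 68.1%) against 48.2% for all sites. At 100 or more the counts were 51 in KO and 33 in WT, a KO share of 60.7% (49.5% to 71.2%) against 47.8%, and at 200 or more they were 28 in KO and 15 in WT, a KO share of 65.1% (49.1% to 79.0%) against 47.6%. Nearly all sites of 50 or more were shared, with 1 unshared tRNA site in KO and 1 in WT, so the larger KO number at these scores did not come from unshared sites. Whether a given score means the same in both lists is not known. Among other short RNAs, small nucleolar RNA sites had a KO share of 53.9% (48.7% to 59.0%), small nuclear RNA sites numbered 43 in KO and 34 in WT, and microRNA sites 43 in KO and 49 in WT. At 50 or more, small nucleolar RNA sites numbered 85 in KO and 50 in WT. Small nuclear RNA sites then numbered 12 and 8, and microRNA sites 13 and 14. A larger KO number at 50 or more was thus not particular to tRNA. Library depth and the share of short RNAs recovered in each library are not given, so genotype and library cannot be told apart.

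Of the KO tRNA sites, 74 had no WT counterpart, where 27.1% of all KO sites had none. Their median score was 18, against 52 for the shared KO tRNA sites, and 42 of the 74 scored under 20. The highest was the site of n-TNgtt7, an asparagine tRNA gene, at chr10:80249151-80249200 on the plus strand, with 143 and rank 328 in its list. It lies within the bounds of the protein-coding gene Ndufs7, a subunit of respiratory complex I, and reads from both RNAs cannot be told apart. The next were n-TLcag10 with 39, and n-TRtcg3, n-TMcat8 and n-TLcag9 with 36 each. Besides n-TNgtt7, none of the 74 reached 50. Leu-CAG contributed 4 genes with a KO site alone, isoleucine 6 and serine 7.

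Of the WT tRNA sites, 4 had no KO counterpart, where 24.9% of all WT sites had none. They were those of n-TStga1 with 58, n-THgtg3 with 17, n-TEctc13 with 16 and n-TCgca54 with 15. For n-TStga1, a serine tRNA gene, the KO list held a site on the next step of the same gene, at chr13:23518201-23518250 with 15, whereas the WT site was at chr13:23518151-23518200. n-TCgca54 also had a neighbouring KO site on the same gene, with 17. n-THgtg3 had no KO site on the gene, and 13 nt beyond its 3′ end both lists held a further site, with 13 in KO and 14 in WT. The glutamate gene n-TEctc13 had no KO site.

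For a few genes with a KO site alone, the WT list held a site just beyond the gene. It held a site of 13 at 2 nt from the 3′ end of n-TIaat9 and a site of 16 at 19 nt from the 3′ end of n-TScga1, whose KO sites scored 17 and 14.5. Within 500 nt of a tRNA gene without touching one, there were 9 KO sites and 10 WT sites. The closest outside the set were, in KO, a site of 45 at 4 nt from n-TLcag4 and, in WT, a site of 17 at 1 nt from n-TNgtt14. The sites with the smallest overlap inside the set, 1 nt, were over n-TAtgc10 with 90 in KO and 29 in WT, n-TSgct7 with 50 in KO and 43 in WT, and n-TSgct4 and n-TTagt1 with 20 and 18 in KO.

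Most tRNA sites lay in clusters of tRNA genes, large and small. Genes on a chromosome were joined into a cluster where each lay within 100 kb of the next and at least 3 were joined, which gave 19 clusters with 281 of the 403 genes (69.7%). They held 157 of 239 KO sites (65.7%) and 108 of 171 WT sites (63.2%), close to their share of genes. Chromosome 13 alone had 81 KO sites and 54 WT sites. Its 3 large clusters lie near the major histone gene cluster of the mouse.

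The cluster with the most sites, chr13:23270421-23530419, had 35 of 45 genes under a KO site and 20 under a WT site. The cluster at chr13:21848022-22050767, which holds n-TDgtc11, had 24 of 32 genes under a KO site and 17 under a WT site. The one at chr13:21160785-21326789 had 19 of 24 under a KO site and 14 under a WT site. On chromosome 11, chr11:69037003-69125248 had 15 of 18 under a KO site and 10 under a WT site, and on chromosome 1, chr1:171033942-171111515 had 11 of 25 under a KO site and 8 under a WT site. All 5 of these clusters had more genes under a KO site than under a WT site, as did all tRNA genes together, with 235 and 169. Smaller clusters with equal numbers in both lists were chr17:23533962-23550335 with 4 genes, chr11:115412981-115413851 with 3 and chr2:122375494-122378039 with 2. Besides the block of Cys-GCA genes, a cluster of 8 alanine tRNA genes at chrX:136357602-136430436 was without sites in both lists. The limit on reads that match several copies holds for this cluster too.

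The sites sat towards the 3′ end of the tRNA. The annotation gives no strand for tRNA genes, so 5′ and 3′ were taken from the strand of the site. Genes of up to 76 nt were divided into 10 equal segments, and a segment counted as covered if the base at its middle was under a site. The first segment, at the 5′ end, was under a site in 45.2% (37.9% to 52.6%) of 186 genes in KO and in 40.1% (31.9% to 48.9%) of 137 genes in WT. The eighth segment, on the side of the TΨC arm, was under a site in 76.3% (69.6% to 82.3%) in KO and in 70.8% (62.4% to 78.3%) in WT. In both lists cover was lower at the 5′ end than in the eighth segment. KO and WT profiles were not tested against each other.

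**Figure D4:**
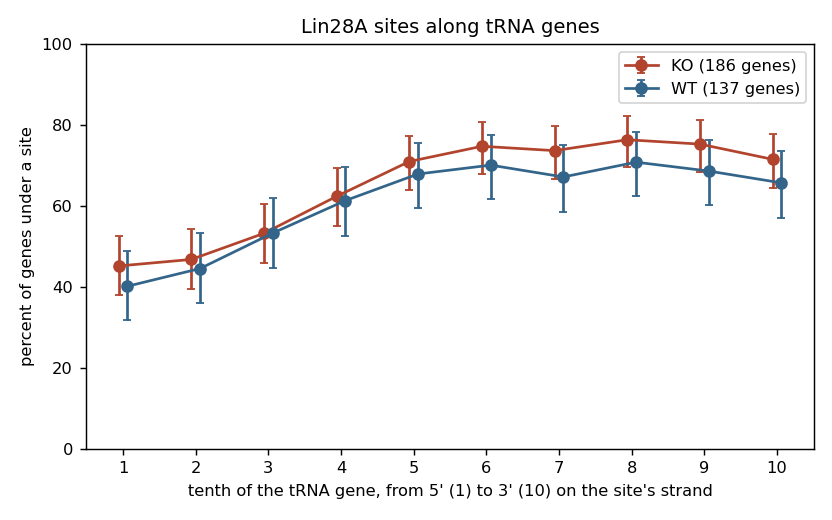
Percent of tRNA genes of up to 76 nt with a site whose bases in each segment were covered (y axis), by segment from the 5′ end (1) to the 3′ end (10) on the site's strand (x axis), for 186 genes in KO (red) and 137 in WT (blue); error bars are exact 95% intervals for counting error. Cover was lowest at the 5′ end, 45.2% in KO and 40.1% in WT, and highest in segment 8, 76.3% in KO and 70.8% in WT.

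Each gene was also divided at its midpoint. More bases were covered on the 3′ side in 138 genes and on the 5′ side in 45 genes in the KO list, with 52 equal. In the WT list it was 103 genes on the 3′ side and 43 on the 5′ side, with 23 equal. Of the genes that were unequal, the 3′ side led in 75.4% (68.5% to 81.5%) in KO and 70.5% (62.4% to 77.8%) in WT. The fixed steps of 50 nt limit where a site can lie, so for genes with a site of a single step, that step was set against the step covering most of the gene. They were the same step for 76 of 141 genes in KO and 65 of 123 in WT. Where they were not, the site lay to the 3′ side in 56 genes and to the 5′ side in 9 in KO, and to the 3′ side in 48 and to the 5′ side in 10 in WT. The part of the grid of steps in the 3′ placement was not tested further.

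Beyond the gene itself, 118 of 239 KO sites (49.4%) and 87 of 171 WT sites (50.9%) ran past the 3′ end alone, into the region of the trailer of the primary transcript. By contrast 42 KO sites (17.6%) and 33 WT sites (19.3%) ran past the 5′ end alone. Sites with 10 nt or less on the gene numbered 23 in KO, 19 of them at the 3′ end, and 15 in WT, 13 of them at the 3′ end. Among these were n-TRtct2, whose KO site scored 242, and n-TAagc12, whose WT site scored 301. At such sites the mature tRNA and its flank cannot be told apart.

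A width of 100 nt was more frequent among tRNA sites than among all other sites. A width of 100 nt was found in 86 KO sites (35.98%), against 9.93% of all other KO sites, and in 44 WT sites (25.7%), against 9.83% of all other WT sites. Small nucleolar RNA sites had this width more often still, in 40.1% in KO and 34.7% in WT. The mean width of tRNA sites was 69.7 nt in KO, against 62.0 nt for all other KO sites, and 62.9 nt in WT, against 61.7 nt for all other WT sites. The rest were 50 nt wide except for 4 KO sites of 150 nt, over n-TLtag3, n-TRacg1, n-TAagc12 and n-TPtgg5. Among the 167 genes with a site in both lists, the site length was longer in KO for 36, longer in WT for 2 and equal for 129. The median cover of a gene was 65.3% in KO and 59.7% in WT, and the whole gene was covered by 52 KO sites (21.8%) and 23 WT sites (13.5%).

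Most tRNA genes with a site lay outside other genes. Of the 237 genes with a site in either list, 18 lay within the bounds of a protein-coding gene, 40 within those of a long noncoding RNA gene and 180 within neither. The same counts were not made over all 403 tRNA genes, so this sets the genes with a site in no contrast to those without. By strand, the KO list had 117 tRNA sites on the plus strand and 122 on the minus strand, and the WT list 80 and 91. No tRNA gene had sites on both strands.

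The mRNAs of the tRNA machinery were examined for sites as well, over gene bounds and with the tRNA sites removed. Of 23 genes for aminoacyl-tRNA synthetases and their complex, which load amino acids onto tRNAs, 20 had sites in the KO list and 19 in the WT list, with 104 sites in each. Eprs, which charges glutamate and proline tRNAs, had 16 KO sites and 14 WT sites, and Nars, the asparagine enzyme, had 11 KO sites and 12 WT sites. Of 49 genes for tRNA maturation, modification and export, 17 had KO sites and 14 had WT sites, 31 and 25 sites in all. Ssb, the La protein that binds new polymerase III transcripts, had 3 KO sites and 4 WT sites, and Ctu2, needed for thiolation of the wobble base, had 3 KO sites and 0 WT sites. Of 25 genes of the polymerase III machinery, 13 had KO sites and 10 had WT sites, 20 and 19 sites in all. The share of all genes that held a site was not counted, so these numbers show no enrichment of any of these gene groups. The site numbers of synthetase genes were thus equal between the lists, where the number of sites over tRNA genes was 239 in KO and 171 in WT. The maturation, modification and export genes had more sites in KO, 31 against 25 in WT, over 17 and 14 genes. The polymerase III genes had nearly equal site numbers, 20 and 19, over 13 genes in KO and 10 in WT. A larger KO number was therefore not confined to sites over tRNA genes, and the groups were not tested against each other.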

How the data were processed

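The deposited site lists gave, per site, position, strand, a score and a p-value. Both score and p-value are the authors' own. Per the submitters' processing notes, Bowtie2 and UMI-tools were used with the build mm10; no versions are named. Not given in the sources used here were the site caller, its threshold, its control and the handling of reads with several matching positions. The largest p-value deposited by the authors for a tRNA site was 1.06e-05 in KO and 1.01e-05 in WT. Read depth is unknown. The icSHAPE files of the series were not used.

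tRNA genes came from the RefSeq gene table of GRCm38.p6, and 5 tRNA entries on scaffolds were left out. Families and anticodons were read from the gene names. Overlaps, ranks and medians were computed with Python 3.11.15, pandas 2.3.3, NumPy 2.4.6 and SciPy 1.17.1, with exact Clopper-Pearson 95% intervals for shares and order-statistic intervals for medians. The overlap step was tested on simulated sites. No test between genotypes was made because each had 1 sample. Named in the text were, by rule, the 12 families with most sites, the 10 highest sites per list, up to 10 unshared sites per list or else the 5 highest, the widest sites, and the 5 clusters with most sites. Others were named to illustrate a count after their values were seen. Sequences were meant to be those of leading genes and were taken instead from the tRNA genes held in the RefSeq promoter table. Members and gene lists were chosen with earlier results of these data known. Alternatives covered the overlap for membership and sharing, the score limit and the cluster distance.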

Additional observations from a re-analysis of the deposited data

How the results depend on the processing

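Of 52 recomputed values, 45 moved by less than the limit set for a change. That limit was wide, since the fall from 239 to 165 KO sites did not count as a change. Some of the 45 could not move. Every site already lay over a single tRNA gene, and no WT site scored under 13. Sites lie on steps of 50 nt, so asking for an overlap of 25 nt changed nothing. The tally is therefore no measure of robustness. With identical start, end and strand required, 54.4% of KO and 76.02% of WT tRNA sites were shared, in place of 69.0% and 97.7%. With at least 50% of the tRNA gene covered, there were 165 KO sites and 109 WT sites, over 165 and 109 genes, and the median KO width was 100 nt in place of 50 nt, because sites that cover little of a gene are removed. With clusters joined at 10 kb, 56.9% of KO and 55.0% of WT sites lay in clusters, in place of 65.7% and 63.2%. The KO share of tRNA sites lay between 57.8% and 60.2% under all 4 settings, which were chosen after the data were seen. Alternatives on the strand of the tRNA gene and on tRNA pseudogenes were not run, because the annotation used gives no strand for these genes and marks no tRNA pseudogene. No paired analysis was possible because each genotype had 1 sample. For the same reason no sample could be left out. Depth is not given, so a gene without a site may have been below detection in that list.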

Other observations

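Mitochondrial tRNA genes were outside the set. The mitochondrial chromosome held 35 KO sites and 46 WT sites, of which 10 KO sites and 14 WT sites overlapped a mitochondrial tRNA gene. They lay over 18 of 22 such genes in KO and 17 of 22 in WT, and the highest score was 1650 in KO and 620.9 in WT. Between the nuclear tRNA genes, the highest score within 500 nt of a gene without touching one was 258 nt from n-TIaat11, with 92 in KO and 131 in WT. A site 290 nt from n-TKttt23 scored 23 in KO and 46 in WT.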
